A study of Mus musculus with 2 samples.

Results

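C3, C4b, C7 and Serping1, 4 genes of the complement system, were followed through the stromal cells of the mouse colon and small intestine. They were chosen by name, with earlier results of these data known. All 4 were among the 16098 genes listed for both libraries (16381 for the colon, 18262 for the small intestine). The study sequenced the RNA of single stromal cells from healthy, untreated mice in droplets, making 1 library of each tissue. After removal of the epithelium, the colon was digested for 60 minutes and the small intestine for 45 minutes, and live cells lacking CD45, a marker of leukocytes, and CD326 (EpCAM), a marker of epithelium, were sorted. How many animals were used, and their age, sex and strain, is not given in the sources used here. Because each tissue had 1 library, no difference has a replicate check, and all 95% intervals cover counting error only.

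Complement is a cascade of plasma and tissue proteins that marks and lyses microbes and recruits phagocytes. C4 is cleaved by the C1 complex or by the lectin pathway proteases and helps to form the enzyme that cleaves C3, the component on which all branches meet. C7 joins C5b and C6 on a membrane and is one of the building blocks of the lytic membrane attack complex. Serping1 encodes C1 inhibitor, a serpin that blocks C1r, C1s and the lectin pathway proteases and also restrains plasma kallikrein. Liver is the main source of the plasma proteins, and stromal cells are known as a major local source of C3 in the mouse gut.

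The colon library held 6018 annotated cells and the small intestinal library 9359, with medians of 6598 and 5943 unique molecular identifiers (UMIs, each marking 1 captured RNA molecule) per cell. The authors' labels gave 6 types with at least 50 cells in each tissue. These were CD81- fibroblasts, CD81+ trophocytes (fibroblasts of the deep submucosa), PDGFRa-high subepithelial myofibroblasts (SEMFs), lymphatic endothelial cells (LECs), blood endothelial cells (BECs) and smooth muscle cells (SMCs). The first 3 are together called fibroblasts. At least 5 of 6 markers of trophocytes, SEMFs, LECs, BECs and SMCs were highest in the type so labelled, in both tissues. Of the 6 markers of CD81- fibroblasts, 4 were highest there in the colon and 0 in the small intestine. The cells labelled SMCs in the small intestine also carried fibroblast transcripts, and their level of Dcn, the matrix proteoglycan decorin, was 45.1% of that in fibroblasts. The libraries shared 21 barcodes.

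The colon library was mixed in a second way that touches the results. In 1751 of its cells Y-linked UMIs but none of Xist were found (called Y-only here), and in 2700 cells Xist but no Y-linked UMI (called Xist-only). In the small intestine Xist was not listed, and 6896 of 9359 cells had a Y-linked UMI. The ratios of pooled fibroblasts are therefore given also with each of these colon subsets alone, and those of single types where a call or the C7 difference depends on the subset.

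C3 (GRCm38 chr17:57203970-57228136, minus strand) encodes the central component of the cascade. Its RNA was highest in trophocytes of both tissues. The level in CPM, the gene's UMIs scaled to a fixed total for the type, was 1279.8 in colon trophocytes and 2541 in small intestinal trophocytes. CD81- fibroblasts followed, at 157.5 and 953 CPM (colon first). SEMFs held little C3, with 5.65 CPM in colon cells against 36.6 CPM. The gene thus separated the trophocytes from the SEMFs in each tissue, with CD81- fibroblasts between them.

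The first 250 bases upstream of the RefSeq start of C3 are shown because C3 and C7 are the members with an entry in the promoter table used (2 of 4). The window is GRCm38.p6 chr17:57228137-57228386, minus strand, written 5′ to 3′, and the capitals mark a match to TTGCNNAA, the core recognised by C/EBP factors, which are known regulators of acute phase genes.
C3: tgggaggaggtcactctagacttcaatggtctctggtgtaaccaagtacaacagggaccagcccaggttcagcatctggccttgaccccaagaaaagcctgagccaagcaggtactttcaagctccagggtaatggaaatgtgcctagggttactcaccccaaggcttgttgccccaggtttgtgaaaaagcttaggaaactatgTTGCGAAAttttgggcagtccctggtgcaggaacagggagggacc
The match lies 45 to 38 bases upstream of the start. Searched on both strands, these letters occurred in 9.56% of all 32851 windows of that length, so the match is a description of the sequence and not evidence of a site.

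C3 UMIs were seen in 88.7% of colon trophocytes (95% exact interval 86.4 to 90.7) and in 98.5% of small intestinal trophocytes (97.9 to 99.0). With every cell thinned to 2000 UMIs, which left out 0 (colon LECs) to 148 (small intestinal LECs) shallower cells per type, these shares were 76.3% and 95.1%. Colon CD81- fibroblasts differed more from their small intestinal counterparts, with 26.8% against 72.5% of cells positive (14.8% against 58.2% thinned). The share was 1.6% in colon SMCs (median depth 5526 UMIs) and 4.77% in small intestinal BECs (median 3651.5 UMIs), the types with the fewest positive cells. The 2.72% of colon SEMFs with a C3 UMI (median 6345 UMIs) lay inside the interval of that colon background. In colon CD81- fibroblasts the 10% of cells with the most C3 held 78.6% of the C3 UMIs, against 38.8% in the small intestine.

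Pooled fibroblasts had 314 CPM of C3 in the colon against 1382 CPM, so the log2 ratio of colon to small intestine was -2.14 (-2.17 to -2.11). The ratio was larger in CD81- fibroblasts, at -2.60 (-2.65 to -2.55), than in trophocytes, at -0.99 (-1.02 to -0.95). The pooled ratio also carried the mix of subtypes, and with the 3 subtypes given equal weight it was -1.29. With Y-only or Xist-only colon cells it was -2.25 and -1.93, so the direction held in each subset.

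C4b (GRCm38 chr17:34728380-34743882, minus strand) encodes complement C4, the substrate of C1s. Its levels did not follow those of C3. In the colon C4b was highest in CD81- fibroblasts, at 451 CPM, and trophocytes had 206 CPM. In the small intestine the order was the other way round, with 1038 CPM in trophocytes and 851 CPM in CD81- fibroblasts. SEMFs were low in both tissues, at 15.2 and 44.3 CPM (colon first). The top type therefore changed between tissues, and in neither tissue did the intervals of trophocytes and CD81- fibroblasts overlap.

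C4b UMIs were found in 77.4% of colon CD81- fibroblasts and 40.2% of colon trophocytes (50.1% and 23.9% thinned). In the small intestine the shares were 89.9% and 92.1% (71.4% and 78.0% thinned). The lowest background was 2.29% of small intestinal BECs (median 3651.5 UMIs), and in the colon 6.43% of SEMFs (median 6345 UMIs). The log2 ratio of colon to small intestine was -2.33 (-2.41 to -2.25) in trophocytes, -0.92 (-0.95 to -0.88) in CD81- fibroblasts and -1.28 (-1.31 to -1.25) in pooled fibroblasts. Between these 2 types C3 thus differed more in CD81- fibroblasts and C4b more in trophocytes. The pooled C4b ratio was -1.40 with Y-only and -1.18 with Xist-only colon cells.

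Mice carry a near-identical copy, C4a (GRCm38 chr17:34809092-34823464), the sex-limited protein gene, and 3′ reads could be split between the copies. Over the last 500 bases of their transcripts the copies shared 489 identical positions, with 10 mismatches. C4a had only 13 UMIs in colon fibroblasts and 27 in small intestinal fibroblasts, and adding them moved no C4b ratio by 1.5 times or more. How the counting treated reads shared by the copies is not given in the sources used here.

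C7 (GRCm38 chr15:4988762-5063740, minus strand) encodes a terminal component and had the largest difference between tissues of the 4 genes in pooled fibroblasts. In small intestinal SEMFs it reached 1033 CPM, above trophocytes at 577 CPM and CD81- fibroblasts at 353 CPM. In the colon trophocytes were highest, at 168 CPM, CD81- fibroblasts had 26.5 CPM, and SEMFs had 10 UMIs in 1105 cells, or 1.345 CPM. The gene was thus highest in SEMFs in one tissue and close to absent from them in the other.

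The window upstream of C7 is GRCm38.p6 chr15:5063774-5064023, minus strand, with capitals marking a match to TTCNNNGAA, a core recognised by STAT factors, and, at the end next to the start, TATAAA read on the other strand.
C7: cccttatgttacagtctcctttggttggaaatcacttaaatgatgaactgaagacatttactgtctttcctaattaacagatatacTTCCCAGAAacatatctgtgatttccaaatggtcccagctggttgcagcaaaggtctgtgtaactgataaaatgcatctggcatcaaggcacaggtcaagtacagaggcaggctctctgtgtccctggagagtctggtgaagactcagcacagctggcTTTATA
The STAT core lies 164 to 156 bases and the TATA match 6 to 1 bases upstream of the RefSeq start. Of all 32851 windows, 7.02% held TTCNNNGAA and 12.4% held TATAAA on either strand. The 3 motifs did not overlap one another in these windows, and the C3 window held neither of the latter.

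C7 UMIs were found in 76.6% of small intestinal SEMFs (73.9 to 79.0) and in 0.905% of colon SEMFs (0.435 to 1.66). Thinned to 2000 UMIs, the shares were 62% and 0.365%. The least positive types were BECs in the small intestine, at 1.34% (median 3651.5 UMIs against 5510 in SEMFs), and in the colon BECs and SMCs, with 0 UMIs. A count of 0 in the 53 BECs and 125 SMCs allows at most 13.7 and 4.78 CPM, so the 1.345 CPM of colon SEMFs could not be told from background. Trophocytes had C7 in 35.4% of colon and 77.3% of small intestinal cells, and CD81- fibroblasts in 7.44% and 52.8%.

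The log2 ratio of colon to small intestine was -9.59 (-10.65 to -8.71) in SEMFs, -3.74 (-3.85 to -3.62) in CD81- fibroblasts, -1.78 (-1.88 to -1.69) in trophocytes and -3.59 (-3.66 to -3.52) in pooled fibroblasts. As a difference of mean deposited log values, in which 1 is added to each cell's scaled UMIs, the SEMF value was -2.52 on the log2 scale. In the colon C7 also went with the split by Xist and Y-linked UMIs. In trophocytes it was 305 CPM in 274 Y-only cells (64.2% positive) and 29.9 CPM in 406 Xist-only cells (12.6% positive), a log2 ratio of 3.35 (3.03 to 3.68). In CD81- fibroblasts it was 52.4 CPM in Y-only and 4.64 CPM in Xist-only cells, a log2 ratio of 3.50 (3.08 to 3.94). Of the 4 members only C7 passed a log2 ratio of 1 in that split, in a background of 0.345% of genes in CD81- fibroblasts and 0.563% in trophocytes that were so much higher in Y-only cells. Lower genes made up 0.307% and 0.692% of those tested. It ranked 3 of 10424 genes tested in CD81- fibroblasts and 2 of 6212 in trophocytes. The other members lay between -0.59 and 0.04 in those types.

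In SEMFs the Y-only cells had 4 and the Xist-only cells 3 C7 UMIs, so the low SEMF level was seen in both subsets. Against the small intestine, the pooled C7 ratio was -2.62 with Y-only and -6.05 with Xist-only colon cells. In CD81- fibroblasts it was -2.75 and -6.25, and in SEMFs -9.21 and -10.28. The size of the C7 difference thus depended on the subset, and its direction did not. Whether Y-only and Xist-only cells came from separate animals, and in what else these differed, is not given in the sources used here, and sex and animal cannot be told apart in this library.

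**Figure D1:**
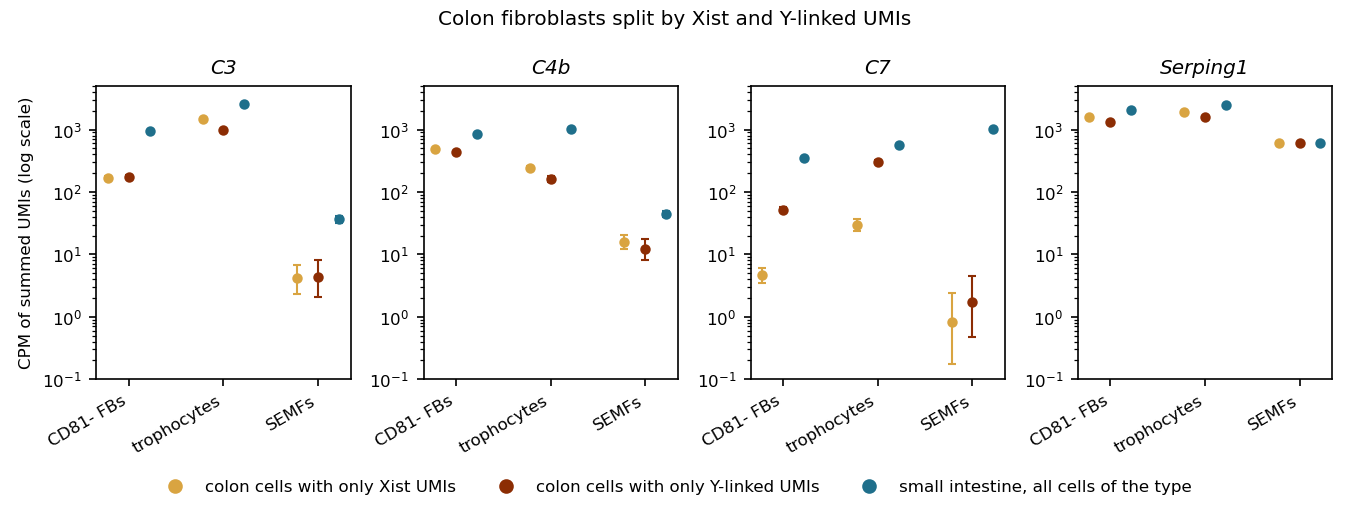
Level in CPM of summed UMIs (log scale) of each member in 3 fibroblast types, for colon cells with only Xist UMIs, colon cells with only Y-linked UMIs and all small intestinal cells of the type. Bars are exact Poisson 95% intervals. C7 is 305 CPM in Y-only and 29.9 CPM in Xist-only colon trophocytes. The gaps in the same cells are smaller for C3 (997 and 1493 CPM), C4b (160 and 241 CPM) and Serping1 (1587 and 1888 CPM).

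Serping1 (GRCm38 chr2:84765387-84775444, minus strand), the gene of C1 inhibitor, was the most evenly spread member. Trophocytes had 1774 and 2441 CPM (colon first), CD81- fibroblasts 1466 and 2053 CPM, and SEMFs 616 and 604 CPM. Outside fibroblasts it ranged from 168 CPM in small intestinal BECs to 1146 CPM in small intestinal SMCs. No type of 50 or more cells was without it.

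At least 1 Serping1 UMI was found in 99.6% of CD81- fibroblasts of each tissue, in 98.7% and 99.8% of trophocytes and in 93.03% and 90.17% of SEMFs (colon first). In LECs the shares were 75.1% and 60.2% (52.5% and 39.7% thinned). The lowest share was in BECs, with 26.4% in the colon (median 3821 UMIs) and 34.5% in the small intestine (median 3651.5 UMIs). The log2 ratio of colon to small intestine was -0.54 (-0.56 to -0.52) in pooled fibroblasts, -0.49 in CD81- fibroblasts and -0.46 in trophocytes. In SEMFs it was 0.03 (-0.03 to 0.09), a difference not detectable at this depth. Serping1 was therefore lower in the colon in 2 of 3 fibroblast types, by less than the log2 ratio of 1 used for a call.

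**Figure D2:**
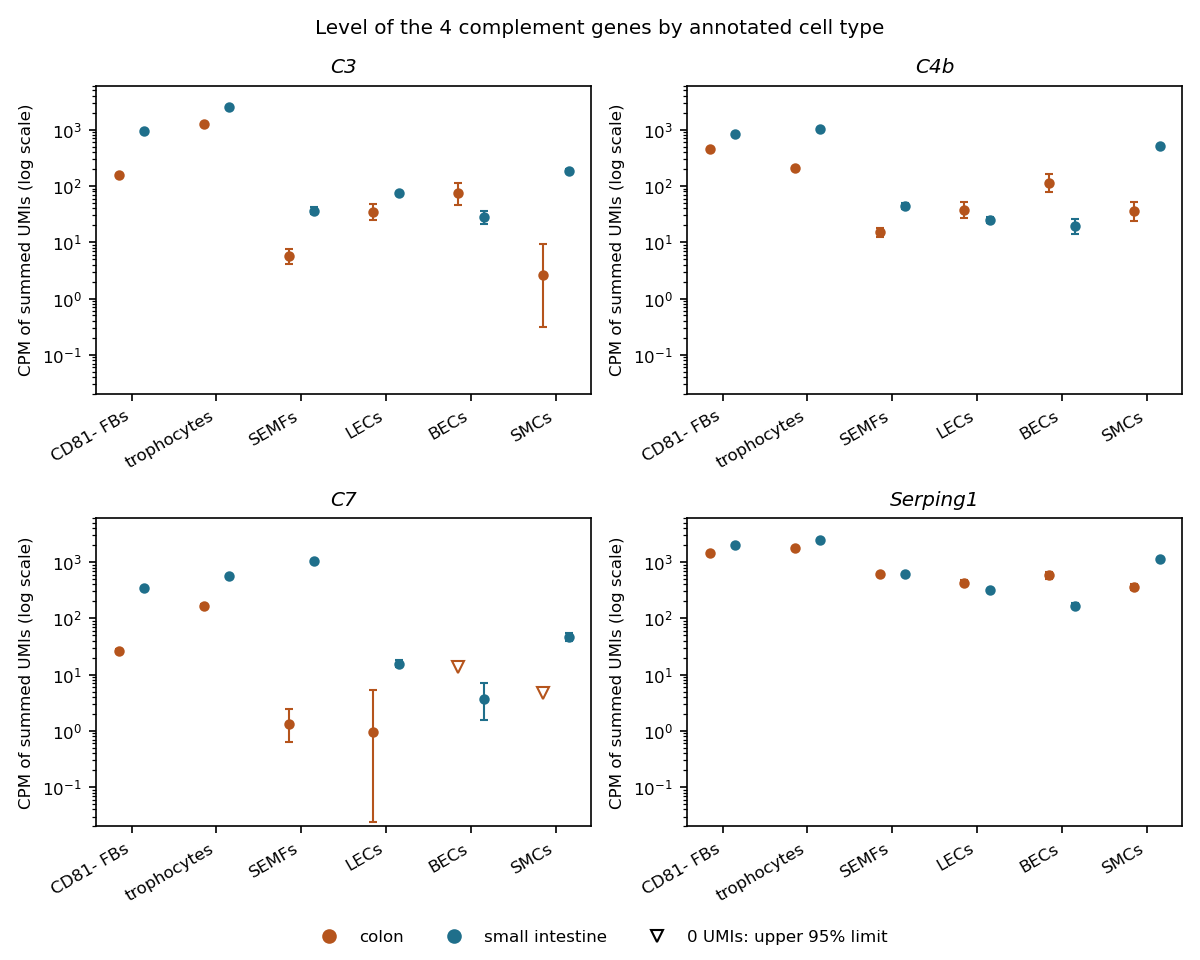
Level of each member in CPM of summed UMIs (log scale) in the 6 annotated types of the colon and small intestine, 1 library each, with exact Poisson 95% intervals. C7 is the member with the widest gap, between colon SEMFs at 1.345 CPM and those of the small intestine at 1033 CPM; open triangles give the upper 95% limit where 0 UMIs were counted.

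The 4 members were set beside all genes that had 100 or more UMIs over the pair of libraries. A gene was called where its log2 ratio passed 1 in size with an interval off 0. As the members were chosen with earlier results of these data known, their counts are descriptions and not tests. In pooled fibroblasts 3 of 4 members (C3, C4b and C7) were lower in the colon, where 9.47% of 13307 genes were. The median gene lay at -0.17 there, and relative to it the ratios were -1.96 for C3, -1.11 for C4b, -3.41 for C7 and -0.36 for Serping1. In CD81- fibroblasts 2 of 4 members were lower (background 10.4%), C3 and C7. In trophocytes 2 of 4 were lower (background 8.24%), C4b and C7. In SEMFs 3 of 4 were lower (background 15.1%), all but Serping1. C3 in SEMFs was at -2.70 (-3.21 to -2.22) and C4b at -1.54 (-1.87 to -1.23), both from levels under 50 CPM. C7 was the member called in each of these types with all colon cells. In trophocytes the calls depended on the colon subset. With Y-only colon trophocytes C7 was at -0.92, short of a call, and C3 at -1.35, past it. With Xist-only trophocytes C7 was at -4.27 and C3 at -0.77.

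Outside fibroblasts the members did not move one way. In LECs 2 of 4 were lower in the colon (background 14.7%), C3 at -1.09 (-1.61 to -0.62) and C7 at -4.06 (-9.38 to -1.57, from 1 UMI against 176). Neither call held in LECs with fewer than 3 Dcn UMIs, where C3 was at -0.59 and C7 had 0 UMIs against 36, too few for a ratio. C4b and Serping1 were at 0.58 and 0.46 in LECs. In the LECs low in Dcn, C4b was 9.20 CPM in the colon (8 UMIs, 3.97 to 18.1) and 5.43 CPM in the small intestine (4.13 to 7.02), with overlapping intervals. Serping1 was 328 CPM (291 to 368) and 274 CPM (265 to 285) in the same cells. In SMCs all 4 were lower in the colon (background 17.3%). C3 had 2 UMIs in colon SMCs against 521 (-6.16, -9.21 to -4.30), and C7 had 0 against 132, at least 3.60 lower on the log2 scale with 3 counts in place of 0. In BECs 1 member had enough UMIs, and Serping1 was higher in the colon, at 1.79 (background 3.1%). Fibroblast transcripts measured in the same SMCs and BECs are given beside these values below.

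**Figure D3:**
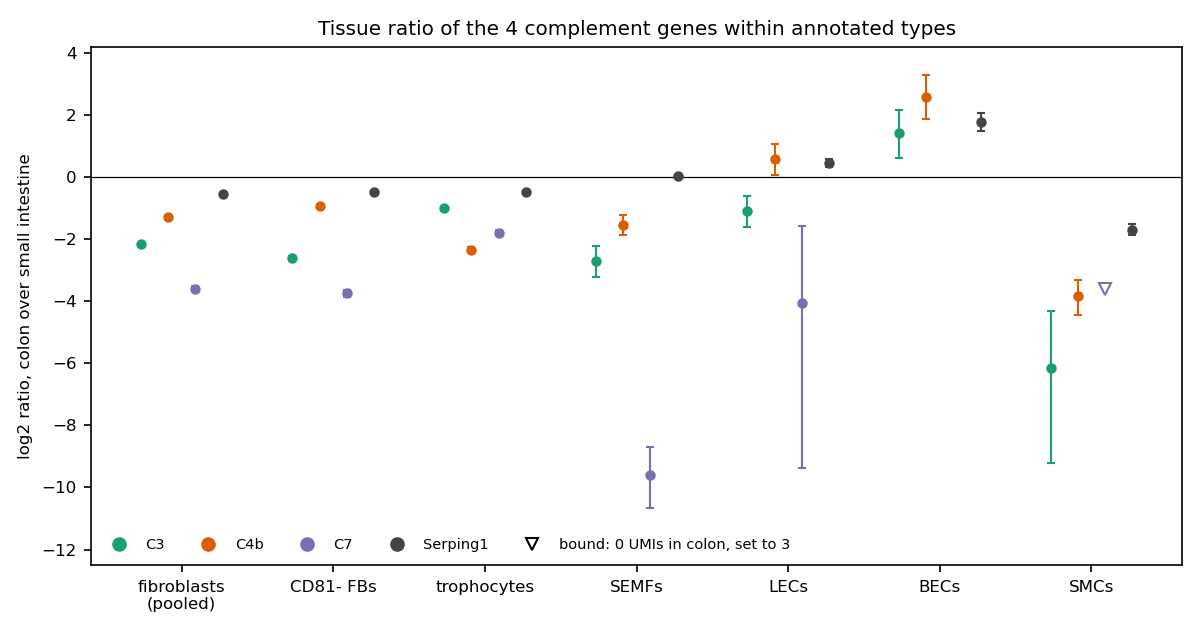
Log2 ratio of colon to small intestine of each member in pooled fibroblasts and in the 6 annotated types, with exact conditional binomial 95% intervals, 1 library per tissue. C7 in SEMFs stands lowest at -9.59, Serping1 in SEMFs lies at 0.03, and the BEC values above 0 rest on few cells.

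Within each tissue the members also set the fibroblast types apart. In colon trophocytes 2 of 4 were higher than in CD81- fibroblasts by a log2 ratio over 1 (background 4.69%). These were C3 at 3.02 and C7 at 2.66, while C4b was lower at -1.13 (background 8.41%). In the small intestine 1 of 4 was higher in trophocytes (background 4.38%), C3 at 1.41. In colon SEMFs 4 of 4 were lower than in CD81- fibroblasts (background 7.58%), from -4.89 for C4b to -1.25 for Serping1. In small intestinal SEMFs 3 of 4 were lower (background 8.53%), and C7 was higher at 1.55 (background 6.98%). As the labels were made from the same cells, these are descriptions of the types and not tests.

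Fibroblasts exceeded LECs for 4 of 4 members in the colon (background 15.4%) and for 4 of 4 in the small intestine (background 20.3%). The gap was smallest for Serping1, at 1.65 and 2.65 on the log2 scale. Between the endothelial types of the small intestine 2 of 4 were higher in LECs than in BECs (background 13.6%), C3 at 1.41 and C7 at 2.11. In cells with fewer than 3 Dcn UMIs (a fibroblast transcript, taken up below), C7 was 3.37 CPM in LECs and 2.81 CPM in BECs with overlapping intervals, so its call ended. C3 was 34.6 CPM and 11.25 CPM in the same cells. Serping1 in LECs and BECs of the small intestine was 313 and 168 CPM.

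Endothelial values of secreted fibroblast genes need their background beside them. In small intestinal LECs the fibroblast transcripts Dcn, Col1a1, Col3a1, Lum and Gsn lay between 2.55% and 2.79% of their fibroblast level. C7 was at 2.91% and C4b at 3.18%, C3 at 5.37% and Serping1 at 15.9%. C4b and C7 were therefore close to the fibroblast transcripts in these cells, and Serping1 was well above them. In the 2427 of 2498 small intestinal LECs with fewer than 3 Dcn UMIs, Serping1 was 274 CPM, C3 34.6 CPM, C4b 5.43 CPM and C7 3.37 CPM. Without the Dcn-rich cells Serping1 was thus close to its level in all LECs (313 CPM), whereas C3, C4b and C7 had been 74.15, 25.2 and 15.7 CPM in all LECs.

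In colon LECs the same 5 transcripts lay between 9.47% and 12.0% of the fibroblast level, C3 at 11.1%, C4b at 11.5%, C7 at 2.09% and Serping1 at 31.9%. Among the members Serping1 was again the one above that range. In the 192 of 217 colon LECs with fewer than 3 Dcn UMIs, Serping1 was 328 CPM and present in 71.9% of cells. C3 there was 23.0 CPM (20 UMIs) and C4b 9.20 CPM (8 UMIs).

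Colon BECs numbered 53, and their values rested on a few cells. Of 20 C3 UMIs all came from 2 cells, and of 156 Serping1 UMIs 69 came from 1 cell. Dcn in colon BECs was 21.5% of the fibroblast level, against 1.15% in small intestinal BECs. With fewer than 3 Dcn UMIs per cell, 48 colon BECs remained, with 0 C3 UMIs and a Serping1 level of 49.6 CPM, and the tissue ratio of Serping1 turned from 1.79 to -1.58. C4b in these BECs was 14.9 CPM in the colon (3 UMIs, 3.07 to 43.5) and 3.75 CPM in the small intestine (8 UMIs, 1.62 to 7.39). In the BECs low in Dcn, Serping1 was thus not higher in the colon, and the C4b intervals overlapped. The C3 order was not settled either. Its upper limit in the colon was 18.3 CPM, against 11.25 CPM (7.21 to 16.7) in the small intestine.

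In small intestinal SMCs C4b stood at 65.5%, Serping1 at 58.3%, C3 at 13.4% and C7 at 8.71% of the fibroblast level. The 5 fibroblast transcripts lay between 28.5% and 58.1% there. In colon SMCs the members lay between 0% (C7) and 26.3% (Serping1) and the transcripts between 11.2% and 73.3%. The part of fibroblast RNA in the SMC ratios was not tested.

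In single cells, small intestinal trophocytes most often held all 4 transcripts. All 4 were detected in 72.6% of them (70.5 to 74.6) and in 17.1% of colon trophocytes (14.7 to 19.8). With cells thinned to 2000 UMIs the shares were 41.0% and 5.74%. For CD81- fibroblasts they were 40.8% in the small intestine and 3.33% in the colon (18.01% and 0.945% thinned). SEMFs most often held 2 members in the small intestine (62.2% of cells) and 1 member in the colon (84.5%). Trophocytes were thus the type in which the genes overlapped most in both tissues, and the colon had a smaller share of cells with all 4 in each fibroblast type. The colon shares pool Y-only and Xist-only cells, which differed in C7 in trophocytes and CD81- fibroblasts.

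**Figure D4:**
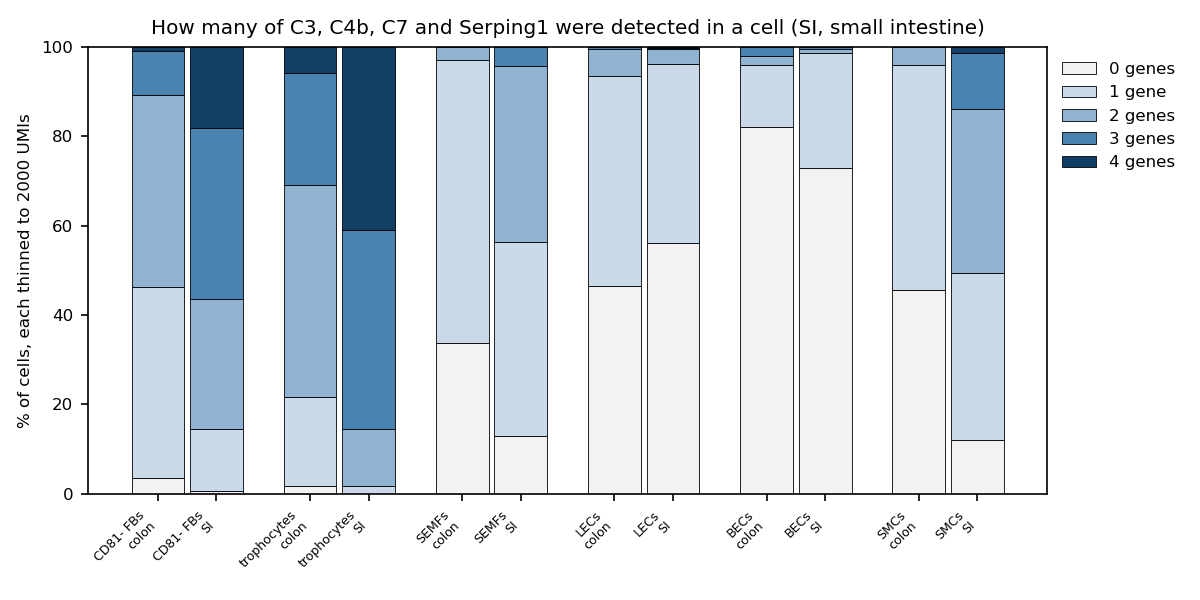
Percent of cells of each annotated type in which 0 to 4 of the members were detected, each cell thinned to 2000 UMIs, with colon and small intestine (SI) side by side. The darkest band, all 4 members, holds 41.0% of small intestinal and 5.74% of colon trophocytes.

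Co-detection was compared with the number expected if the genes were independent among cells of like depth (5 strata of total UMIs). Of the 46 combinations of pair, type and tissue with at least 10 expected cells, 30 were above 1 and 6 below, over a range of 0.93 to 2.43. These counts take the ratio without its interval, and most of the 30 had an interval that held 1. In colon CD81- fibroblasts C3 and C7 were found together in 132 cells against 73.6 expected, a ratio of 1.79 (1.51 to 2.12), and in 2.4 times the expected number after thinning. In these cells C7 was detected in 13.6% of C3-positive and 5.19% of C3-negative cells. C7 was also found in 13.1% of Y-only and 2.66% of Xist-only cells of this type, and C3 in 23.2% and 34.1%. The expected numbers of the colon take no account of that split. In the small intestine the same pair gave 1.08 (1.03 to 1.13). There C7 was detected in 58.2% of C3-positive and 38.45% of C3-negative cells. The ratios of the tissues are not set against each other, because the larger share of positive cells in the small intestine leaves less room above 1.

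In colon trophocytes C4b and C7 were found together in 154 cells against 129 expected, a ratio of 1.19 (1.02 to 1.37). C3 and C4b gave 1.06 (0.972 to 1.15) in colon and 1.01 (0.993 to 1.02) in small intestinal trophocytes, where nearly every cell held both. In small intestinal SEMFs C3 and C4b were found together in 27 cells against 11.1 expected (2.43, 1.61 to 3.51). C4b and C7 in the same SEMFs gave 0.93 (0.742 to 1.15), so the C7 of those SEMFs did not go with C4b beyond counting error. Pairs with Serping1 lay near 1 in fibroblast types, since most cells held it.

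Cells positive for a member were next compared with negative cells of the same type for a fixed list of fibroblast genes. Positive cells were somewhat deeper in UMIs, and CPM was used for that reason. In small intestinal SEMFs, C7-positive cells had more Il33, a cytokine of barrier stroma (39.4 against 13.7 CPM), and more Sox6, a SEMF transcription factor (3705 against 2802 CPM). They had less Adamdec1, a protease of lamina propria fibroblasts (2092 against 3147 CPM), less Cxcl13, a B cell chemokine (17.9 against 41.9 CPM), and less Acta2, a contractile gene (1891 against 2527 CPM). Other SEMF genes of the list did not rise with C7, with Bmp5 at a log2 ratio of 0.00 (-0.07 to 0.07) and Bmp7 at 0.11 (-0.05 to 0.28).

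In colon CD81- fibroblasts Cxcl13 was higher in cells positive for each of the 3 genes compared. It was 3081 against 593 CPM for C7, 1544 against 488 CPM for C3 and 890.3 against 392 CPM for C4b. Cxcl13 was itself higher in Y-only than in Xist-only colon CD81- fibroblasts, at a log2 ratio of 2.51, and its part in the C7 value was not tested. In small intestinal CD81- fibroblasts, C3-positive cells had less Cxcl13 (73.2 against 204 CPM). They had more of the trophocyte genes Pi16 (25.6 against 0.393 CPM) and Cd34 (501 against 179 CPM).

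C4b-positive colon trophocytes had more Grem1, a BMP antagonist (1009 against 240.3 CPM), more Adamdec1 (342 against 72.8 CPM) and less Pi16, a gene of adventitial fibroblasts (203 against 358 CPM). In the small intestine Grem1 was 1345 against 646 CPM, Adamdec1 155 against 59.9 CPM and Pi16 148 against 370 CPM. These 3 genes thus went the same way in both tissues, but Il33 did not, at a log2 ratio of 0.59 between C4b-positive and C4b-negative cells in the colon and -0.42 in the small intestine. C3-positive colon trophocytes had more Grem1 too (619 against 115 CPM) but more Pi16 (313 against 78.4 CPM), and less of the contractile gene Acta2 (19.9 against 240 CPM). So Pi16 ran with C3 and against C4b in colon trophocytes.

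The rest of the pathway was taken from a list of 54 complement genes, of which 38 were listed for both libraries, 2 for 1 and 14 for neither. In pooled fibroblasts 26 had enough UMIs, and 5 were higher and 5 lower in the colon. Among all genes 6.88% were higher and 9.47% lower. The list's median log2 ratio was -0.35, against -0.17 for all genes and -1.71 for the 4 members. The types differed. In trophocytes 8 of 17 listed genes tested were lower (background 8.24%) and 2 higher, with a median of -0.64 against -0.11 for all genes. In SEMFs 6 of 14 were lower (background 15.1%) and 1 higher, with medians of -0.69 and -0.33. In CD81- fibroblasts 4 of 22 were lower (background 10.4%) and 6 higher, with medians of -0.32 and -0.22.

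Among the starters of the cascade, C1ra and C1s1, which encode proteases of the C1 complex, were at -0.99 (167 against 331 CPM) and -0.37 (569 against 733 CPM). Neither was called. Masp1, a lectin pathway protease, was higher in the colon at 1.07 (28.2 against 13.5 CPM), and the collectin Colec11 lower at -1.74. C1qa, C1qb and C1qc, the chains of C1q, were higher at 3.17, 3.64 and 2.92, but at no more than 5.19 CPM. Of the 200 C1qa UMIs in colon fibroblasts 197 lay in CD81- fibroblasts, where Lyz2, a macrophage gene named after its values were seen, was at 19.4 CPM, its highest of the colon types. Ptprc and Cd68 were highest in colon BECs, at 14.8 and 7.42 CPM, but these came from few UMIs in 53 cells. Cd68 was 6.27 CPM in colon CD81- fibroblasts and 6.60 CPM in colon trophocytes, so its order was not settled. The immune markers, C1qa itself among them, were listed for 5 of 7 in the colon and 6 of 7 in the small intestine. They summed to 5.18 to 34.8 CPM over colon types and 3.12 to 39.1 CPM over small intestinal types. No listed one was at 0 in all types, and their part in the C1q values was not tested.

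Of the alternative pathway, Cfb, the protease that pairs with C3b, was lower in the colon at -2.64 (24.2 against 151 CPM), and properdin (Cfp) was at -0.69. C2, the partner of C4, was at -0.68 (23.5 against 37.6 CPM) and was not called in pooled fibroblasts. In trophocytes and SEMFs C2 was called lower, at -1.28 and -1.08. Among terminal genes C6, which binds C7, had 65 UMIs in colon and 642 in small intestinal fibroblasts, a log2 ratio of -3.19 (-3.58 to -2.82). C3 and Cfb, and C6 and C7, were thus lower together in colon fibroblasts.

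Among soluble regulators, Cpn1, a subunit of the carboxypeptidase that trims anaphylatoxins, was higher at 3.23, from 191 UMIs of which 49 came from 5 cells. Of 8 membrane regulators tested, 2 were called, both lower in the colon, Cd46 at -1.62 and Csmd3 at -1.18. Cd55, decay-accelerating factor, was at -0.34 (357 against 452 CPM). Of the receptors C5ar1 was at -0.12 (-0.39 to 0.15) and C1qbp at 0.00. In pooled fibroblasts each membrane regulator and receptor tested was closer to 0 than C3, Cfb, C6 and C7. Those genes were picked as the lowest of the members and of the list, so the order is no test. C4b at -1.28 and Serping1 at -0.54 were closer to 0 than Cd46. The order also did not hold in single types. Csmd3 was at -4.50 in trophocytes (3 against 160 UMIs), past C3 there. Cd55b was at 2.28 in trophocytes and -1.05 in CD81- fibroblasts, and C5ar1 at -1.06 in SEMFs.

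**Figure D5:**
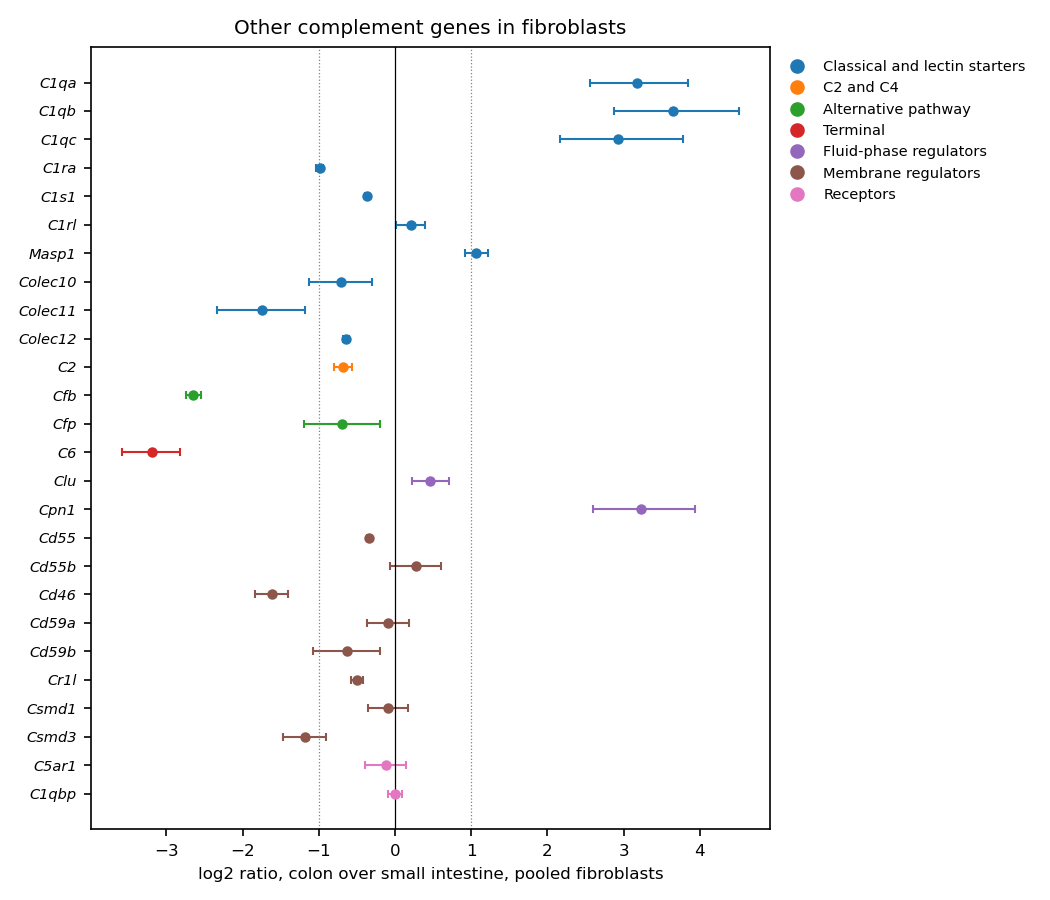
Log2 ratio of colon to small intestine in pooled fibroblasts for the 26 other complement genes with at least 100 UMIs, coloured by role, with 95% counting intervals and dotted lines at a log2 ratio of 1 either way. C6 at -3.19 and Cfb at -2.64 are the lowest, and the C1q chains and Cpn1 the highest.

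In LECs 13 listed genes had enough UMIs, 2 were higher in the colon (C1s1 and Colec12; background 3.45%) and 2 lower (Cd46 and Csmd1; background 14.7%). C1s1 in LECs was 11.9% of its fibroblast level in the colon and 3.22% in the small intestine, against 9.47% to 12.0% and 2.55% to 2.79% for the 5 fibroblast transcripts. Colec12 was at 37.1% and 8.75%, above them. In LECs with fewer than 3 Dcn UMIs, C1s1 was 12.7 CPM in the colon (11 UMIs, 6.32 to 22.6) and 6.09 CPM in the small intestine (4.70 to 7.76). In BECs 1 of 7 was higher, C1s1, at 3.38 from 59 UMIs, and 0 were lower (background 18.7%). In the BECs with fewer than 3 Dcn UMIs C1s1 was 24.8 CPM in the colon (5 UMIs, 8.06 to 57.9) and 16.4 CPM in the small intestine (11.4 to 22.8), with overlapping intervals. Clu, the clusterin gene, was 226 CPM in colon and 375 CPM in small intestinal BECs.

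Over the 12 profiles (6 types in 2 tissues), the genes most like each member were sought by Pearson's r of log2(CPM + 10) among 11772 genes. Profiles of 1 tissue share a library, so r is a description. For C3 they were Col14a1 (r 0.968), Pi15 (0.940) and Gsta3 (0.939), and for C4b they included Sfrp1 (0.973) and Epha7 (0.954). For Serping1 they were Pid1 (0.984), Htra3 (0.978) and Tent5a (0.966). For C7 they were Plcxd3 (0.991), Sgsm2 (0.945) and Fbn1 (0.927). Plcxd3, a phospholipase C-like gene, stood at 0.807 CPM in SEMFs of the colon and 290.4 CPM in those of the small intestine. Between members r ran from 0.575 (C4b and C7) to 0.894 (C4b and Serping1). The genes above were picked by their r from 11772, so the members are not set against them.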

How the data were processed

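UMI counts per gene and cell were deposited by the authors for each library, with a table of natural log values and a cell type label per cell. The submitters' processing notes name Cell Ranger 7.1.0, Seurat 4 and mm10, and filters are not given in the sources used here. Every deposited natural log value was within 1e-06 of ln(1 + UMIs × 10000 / total UMIs of the cell). Counts were used for all main values, summed per type and divided by the type's total. Levels carry exact Poisson, shares Clopper-Pearson and ratios conditional binomial 95% intervals, and a count of 0 was replaced by 3 for a bound. No doublet caller was run. The spellings of 1 fibroblast label were joined and the colon's endothelial subtypes pooled as BECs. Named were the members, pathway genes with at least 100 UMIs, the 3 genes most like each member, and partner genes among the 3 highest and 3 lowest ratios. Some genes are not reported here, and counts over the pathway list leave them out. Lyz2, Card6 and the genes of the split by Xist and Y-linked UMIs other than the members were named after their values were seen. The members and lists were chosen with earlier results of these data known. On fibroblast counts of 13307 genes simulated from the Poisson model that the intervals assume, they covered the truth for 95% of unchanged genes. The simulation had no clustering of UMIs by cell, so it checked the calculation only. Values were computed with Python 3.11.15, numpy 2.4.6 and scipy 1.17.1. Positions are from GENCODE and promoters from RefSeq, both on GRCm38.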

Additional observations from a re-analysis of the deposited data

Results flagged for a closer look

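For 3 members the tissue ratio lay on opposite sides of 0 in types with an interval off 0, and the difference between types was not tested. C3 was at 1.41 in BECs and -6.16 in SMCs, C4b at 2.59 in BECs and -3.84 in SMCs, and Serping1 at 1.79 in BECs and -1.69 in SMCs (log2 ratio of colon to small intestine, 1 library each). In BECs C3 (20 against 61 UMIs) and C4b (31 against 42 UMIs) fell short of the 100 UMIs set for a call. C3 in colon SMCs rested on 2 UMIs.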

How the results depend on the processing

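No paired analysis was possible because each tissue had 1 library. For pooled fibroblasts, the log2 ratios of C3, C4b, C7 and Serping1 kept their direction under all alternatives. In that order, they were -1.76, -0.98, -1.55 and -0.46 with the deposited natural log values, -1.96, -1.11, -3.41 and -0.36 relative to the median gene, -2.25, -1.40, -2.62 and -0.69 with Y-only colon cells, -1.93, -1.18, -6.05 and -0.44 with Xist-only colon cells, and -1.29, -1.52, -3.33 and -0.40 with subtypes weighted equally. Without mitochondrial and ribosomal protein genes C3, C4b and Serping1 were at -2.10, -1.24 and -0.50, with the mean of per-cell CPM C4b and Serping1 were at -1.25 and -0.52, and without the 5% of cells with the most UMIs C3 was at -2.20. With the deposited natural log values, in which 1 is added to each cell's scaled UMIs, C3 and C4b in SEMFs were at -0.10 and -0.08. They were short of 1 in size, but that limit was set for ratios of summed UMIs, an unlike measure. The co-detection ratio of C3 and C4b in colon trophocytes was 1.19 thinned. All 7 reversals were in BECs. C3 was at -0.22 by per-cell mean and -0.96 without the 5% of cells with the most UMIs, and C4b at -0.54 without these cells. Serping1 was at -0.10 with natural log values, -1.69 without these cells, -2.25 with Y-only cells and -1.58 with fewer than 3 Dcn UMIs, an alternative chosen after seeing the data. Colon BECs numbered 53, and depth limits every statement on them. The cause of the other moves was not tested. Over all types and members, 142 alternative ratios stayed within the counting interval, 106 moved outside it and 7 reversed.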

Other observations

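The gene with the profile most like C7, Plcxd3, is also its neighbour (GRCm38 chr15:4375491-4575553), with C6 (chr15:4727175-4814967) between them. In colon CD81- fibroblasts Plcxd3 was 38.6 CPM in Y-only and 2.67 CPM in Xist-only cells, a log2 ratio of 3.86 (3.32 to 4.44), and in trophocytes 1.81 (1.49 to 2.13). C6 did not share that split, at 2.94 CPM in Y-only and 2.75 CPM in Xist-only CD81- fibroblasts (0.10, -0.77 to 0.93), although it was lower in the colon than in the small intestine at -3.19. The window of 1 Mb to either side of C7 held 13 listed genes, C7 included. Card6, the next of them on the other side of C7 and named after its values were seen, was at 0.02 (-0.49 to 0.52) between Y-only and Xist-only fibroblasts.

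Between Y-only and Xist-only colon cells, 7 genes were higher in Y-only cells in both CD81- fibroblasts and trophocytes, of 6151 tested in both: C7, Plcxd3, Cdh13, Cxcl13, Ifi202b, Rgs2 and Stc2. That is 7 of 36 genes called in CD81- fibroblasts and 7 of 35 in trophocytes. Ifi202b, an interferon-inducible gene, was at 6.11 and 5.59 in these types. In the other direction 6 genes were shared, among them Cxcl9, an interferon-induced chemokine, at -1.66 and -4.98, and H2-Q7, a class I gene, at -1.08 and -1.45. C3, C4b and Serping1 were in neither group.

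In small intestinal SEMFs C7 was 1083 CPM in the 864 cells with a Y-linked UMI and 799.6 CPM in the 245 cells without one (log2 0.44, 0.34 to 0.54). The same log2 ratio was 0.26 (0.17 to 0.35) in CD81- fibroblasts and 0.19 (0.10 to 0.28) in trophocytes. Xist was not listed for this library, so the cells without a Y-linked UMI are not known to match the colon's Xist-only cells.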
